A study of Homo sapiens with 108 samples.

Results

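The zinc finger genes named ZNF500 to ZNF899 were followed in 6 human melanoma cell lines after irradiation. Members were chosen by symbol, by the mean log2 intensity over all arrays, which had to lie above 0, and by the share of missing values, which could not exceed 10%. Of 234 probes with 1 symbol in the name range, 165 met these limits, and they covered 138 of 175 genes. Another 21 probes were left out for missing values and 48 for a low level, so 37 genes had no member probe. The table as a whole named 1 gene for each of 23472 of its 54359 probes. Because level and missing values chose the members, their mean levels, which ran from 0.00918 to 6.13 with a median of 1.82, are a description. Just inside the level limit lay ZNF510 at 0.0092, ZNF778 at 0.0113 and ZNF551 at 0.0296, and just outside it lay ZNF501 at -0.0056, ZNF546 at -0.042 and ZNF569 at -0.068. The highest share of missing values inside the limit was 5.56%, for ZNF526, and the lowest outside it, among probes of sufficient level, were 24.1% for ZNF558 and 27.8% for ZNF575.

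The lines were MeWo, HMV-II, HMV-I, Colo679, C32TG and 92-1, each a single established line in culture. Cells received 2 Gy of carbon ions and were sampled at 1 h or 3 h, or 2 Gy of X-rays and were sampled at 1 h or 3 h, and each line had unirradiated cells (0 Gy) of its own for each beam. Carbon ions deposit energy in dense tracks and X-rays deposit it more evenly. A line thus had 6 groups of 3 arrays, and 36 groups made up the series. Both times of a beam were compared with the same unirradiated arrays, and the beams shared none.

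Most genes of this name range encode proteins with arrays of C2H2 zinc fingers, each finger a small fold that holds zinc and reads a short stretch of DNA. Many also carry a KRAB domain, which recruits the co-repressor TRIM28 and, through it, the histone methyltransferase SETDB1 to silence chromatin, often at transposable elements. The genes arose by tandem duplication and lie in clusters, above all on chromosome 19. Their mRNAs as a class are known for short half-lives, so that a pause in transcription can lower them early. By the RefSeq gene table (GRCh38.p14), 61 of the 138 member genes (44.2%, 72 probes) lay on chromosome 19 and 15 on chromosome 16. The files do not record which members carry a KRAB domain, and the split was not made here. Recent duplicates can be nearly identical in sequence, and how far a probe also bound a paralog was not tested.

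The unit of replication was the line. For each probe and comparison a line gave 1 value, the mean of its 3 irradiated arrays minus the mean of its 3 unirradiated arrays on the log2 scale after quantile normalization, and limma tested these 6 values. A probe was called when its p, adjusted by the Benjamini-Hochberg method over all 32060 probes tested, was below 0.05. Changes are given as mean ± SD over 6 lines. All 165 members passed the filter on low values, and 68 of their 17820 values were missing. The median SD between the 3 arrays of a group was 0.124 for members. Nothing in the labels tells if the 3 arrays came from separate cultures, so a p-value within 1 line measures array-to-array spread, which may be technical. In an array normalised to its other spots, fewer cells that express a gene and less RNA of it per cell cannot be told apart. As a check of the cell type, MITF, the master regulator of melanocytes, had median deposited intensities of 16.7 to 233 over the lines. HMV-I was low for other pigment cell genes, with 2.47 for PMEL, 0.5 for MLANA, 0.67 for TYR and 0.401 for TYRP1, and SOX10 was low in every line at 0.641 to 2.09. C32TG was low for MLANA (1.56) and TYRP1 (3.31), Colo679 for TYRP1 (5.53) and 92-1 for S100B (0.71). Of the fibroblast genes, LUM reached 57.5 in MeWo and 27.4 in HMV-II, while DCN and the collagen genes reached at most 4.88. The keratinocyte genes reached at most 1.8, and the leukocyte genes PTPRC and LYZ at most 0.741.

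At 1 h called falls and called rises were both few. After carbon ions 9 members fell (5.45%) and 15 rose (9.09%), against 6.03% and 4.67% of all probes tested and 3.18% and 5.01% of the 14982 probes with 1 symbol under the same limits. The median change of the members was 0.01 (0.006), against 0.01 (0.006) for all probes and 0.02 for named probes, and 47.3% of members lay below 0, against 47.6% of all probes and 40.8% of named probes. After X-rays 2 members fell (1.21%) and 0 rose by limma, against 0.786% and 0.368% of all probes and 0.514% and 0.354% of named probes, with 35 members (21.2%) at an unadjusted p under 0.05, against 13.8% of all and 12.1% of named probes. Their median change was 0.00 (-0.001), against 0.01 for all and 0.01 for named probes. The share of falls thus lay above that of named probes after both beams, and below that of all probes after carbon ions. Whether the members as a group fell more than other probes was not tested.

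These counts depended on the scaling between arrays. For carbon ions at 1 h, median centring gave 9 falls and 24 rises, the deposited scaling gave 10 and 18, and 20 fell and 4 rose when quantile normalization ran over all probes, dim ones included, an alternative chosen after seeing the data. In the last setting the median of all probes tested was -0.05 (-0.047) and that of the members -0.05 (-0.050), against -0.03 (-0.027) for named probes. The 20 falls were 12.1% of members, against 9.64% of all and 5.78% of named probes in that setting. With median centring the 24 rises were 14.5%, against 10.9% of all and 14.6% of named probes. As deposited the 10 falls were 6.06%, against 5.88% of all and 2.79% of named probes. The 18 rises were 10.9%, against 6.06% and 7.63%. Missing values, more frequent among dim probes, moved with the condition: their median number per array was 4349 at 1 h and 3901.5 at 3 h, against 3494 in unirradiated cells. Their part in the counts was not tested. Leaving out 1 line gave 3 to 10 falls and 5 to 13 rises, with the fewest of both without Colo679. The shares of all probes called with 1 line left out are not given here.

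At 3 h more members rose. After carbon ions 6 fell (3.64%) and 28 rose (17.0%), against 6.98% and 6.43% of all probes tested and 5.01% and 7.99% of named probes under the same limits. The members' median change was 0.07, against 0.00 (0.004) for all probes and 0.02 for named probes, and the members' median was above 0 in 6 of 6 lines (0.01 in C32TG to 0.12 in HMV-II), as was that of the named probes (0.01 in C32TG to 0.03 in 92-1). After X-rays 5 members fell and 5 rose (3.03% each), against 4.18% and 2.96% of all probes and 2.00% and 2.94% of named probes, with a median of 0.05.  Median centring gave 7 falls and 42 rises, the deposited scaling 7 and 15, and normalization over all probes 9 and 15. After X-rays it was 4 falls and 20 rises, 6 and 2, and 4 and 2 in the same order of settings. With median centring the rises were 25.5% of members after carbon ions, against 16.9% of all and 21.3% of named probes, and 12.1% after X-rays, against 8.06% and 9.75%. The 15 rises after carbon ions were 9.09%. As deposited this stood against 5% of all and 5.86% of named probes, and with normalization over all probes against 2.6% and 3.48%. The 2 rises after X-rays were 1.21%. As deposited this stood against 1.62% and 1.64%, and with normalization over all probes against 1.36% and 1.35%. With 1 line left out, the 28 rises became 6 without HMV-II, 9 without 92-1, 12 without Colo679 and 13 without HMV-I, and were 27 without C32TG and 27 without MeWo. The 5 rises after X-rays became 1 without HMV-II and 2 without 92-1 or MeWo. How far the calls of the whole array moved with a line left out is not given here. These counts therefore do not single out a line.

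**Figure D1:**
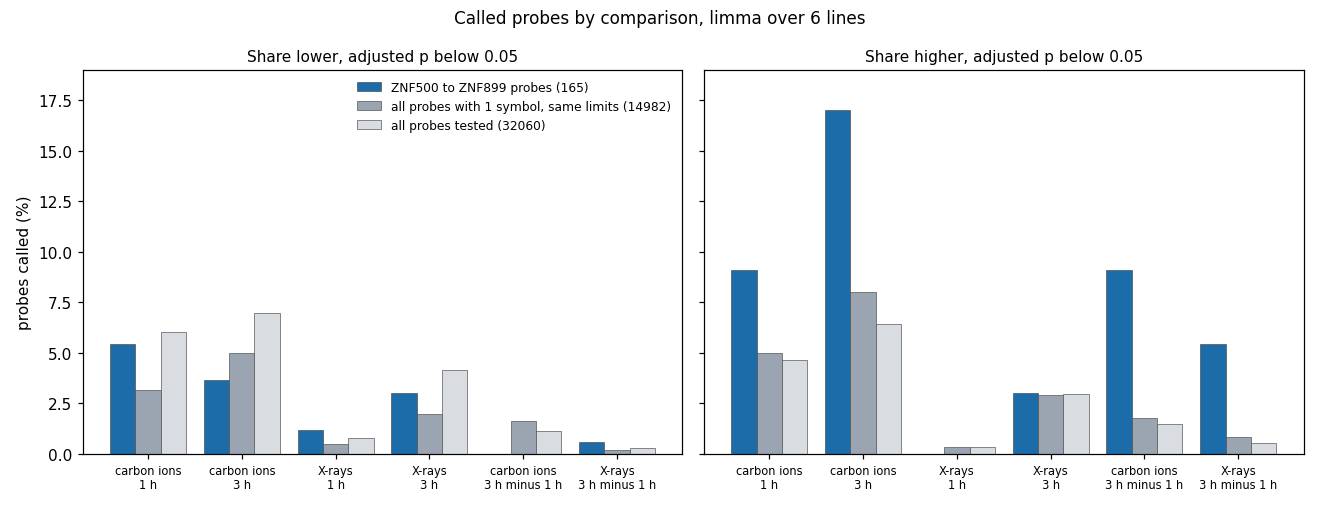
Share of probes called lower (left) and higher (right) in each comparison, in percent, for the 165 member probes, the 14982 named probes under the same limits and the 32060 probes tested. The members' bars for rises reach 17.0% at 3 h after carbon ions and 9.09% for 3 h minus 1 h after carbon ions.

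The interval between 1 h and 3 h was also compared directly, within each beam and without the unirradiated arrays. After carbon ions 15 members were higher at 3 h than at 1 h (9.09%) and 0 were lower, against 1.50% and 1.12% of all probes tested and 1.76% and 1.62% of named probes. By limma 54 members (32.7%) had an unadjusted p under 0.05 in this comparison, against 17.2% of all and 20.3% of named probes. After X-rays 9 were higher at 3 h (5.45%) and 1 was lower (0.606%), against 0.565% and 0.296% of all probes and 0.854% and 0.220% of named probes. The members' median difference was 0.05 for either beam and was above 0 in 6 of 6 lines for each. The named probes had a median of 0.00 (-0.0004), above 0 in 4 of 6 lines, after carbon ions and of 0.01, above 0 in 6 of 6 lines, after X-rays. With the values as deposited the members' median after carbon ions was 0.01 (0.00888), against -0.026 for all and -0.032 for named probes. In that setting 9 members were higher (5.45%) and 4 lower (2.42%) after carbon ions. Of all probes 1.02% were higher and 2.12% lower, and of named probes 1% and 2.96%. After X-rays 6 members were higher (3.64%) and 2 lower (1.21%). Of all probes 0.546% were higher and 0.652% lower, and of named probes 0.687% and 0.534%. The 15 became 5 to 8 with 1 line left out, with the fewest without HMV-I, and the 9 became 1 without HMV-II, 2 without Colo679, 4 without 92-1, C32TG or MeWo and 5 without HMV-I. The 9 also became 1 without the arrays numbered 3. The shares of all probes called with a line or replicate number left out are not given here.

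**Figure D2:**
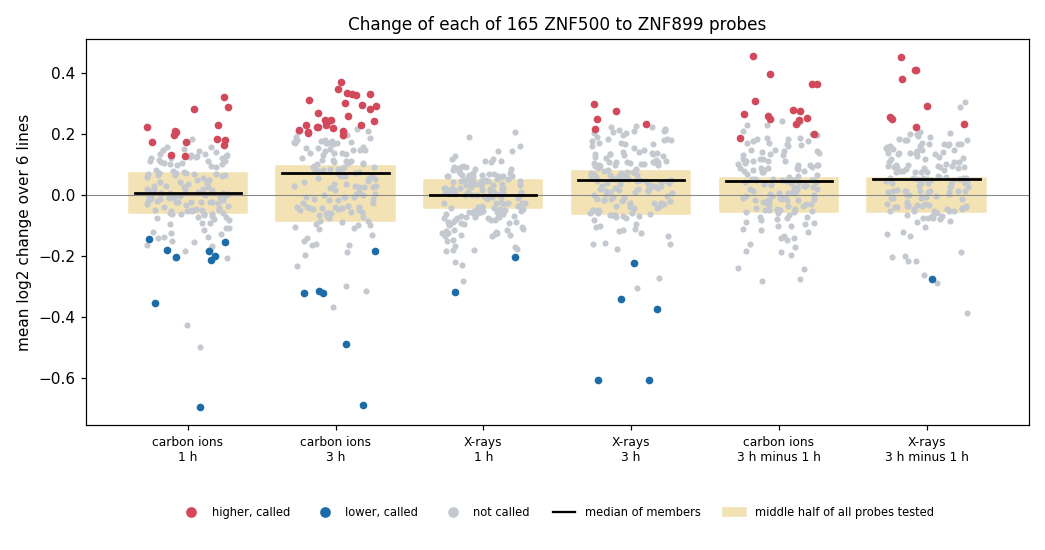
Mean log2 change over 6 lines of each of the 165 members (points) in 6 comparisons, with called members coloured, the members' median as a black line and the interquartile range of all probes tested shaded. The median line lies near 0 at 1 h and at 0.07 at 3 h after carbon ions, and the lowest points at both times after carbon ions are ZNF845 at -0.70 and -0.69.

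ZNF845 (probe 234004, chromosome 19) had the largest falls after carbon ions. It encodes a zinc finger protein from the large cluster on the long arm of that chromosome. At 1 h after carbon ions its 18 arrays ran from 1.15 to 4.01 with a median of 3.43, at 3 h from 1.25 to 4.03 with a median of 3.37, and in unirradiated cells of that set from 2.18 to 4.80 with a median of 4.02. The ranges overlap because the lines differ in level. Within lines the values separated. In MeWo the arrays read 1.15, 1.44 and 1.46 at 1 h and 1.25, 1.31 and 1.57 at 3 h after carbon ions, against 2.18, 2.41 and 2.78 in unirradiated cells. In HMV-I they read 3.68, 3.98 and 4.01 at 1 h and 3.73, 3.92 and 4.03 at 3 h, against 4.27, 4.31 and 4.56. In both lines every irradiated array lay below every unirradiated one.

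Across lines ZNF845 fell by 0.70 ± 0.27 at 1 h after carbon ions (1.62-fold, adjusted p = 0.000579). The 6 line values were -0.69 in 92-1, -0.34 in C32TG, -0.88 in Colo679, -0.49 in HMV-I, -0.67 in HMV-II and -1.11 in MeWo. At 3 h after carbon ions it was lower by 0.69 ± 0.33 (1.61-fold, adjusted p = 0.00317), again in 6 of 6 lines, with line values of -0.90, -0.21, -0.90, -0.49, -0.56 and -1.08 in the same order of lines. After X-rays the fall was 0.32 ± 0.22 at 1 h (adjusted p = 0.0457, 5 of 6 lines, MeWo at 0.05) and 0.61 ± 0.28 at 3 h (adjusted p = 0.0027, 6 of 6 lines). It was the single member called lower in all 4 comparisons. The calls at 1 h and 3 h after carbon ions and at 3 h after X-rays held in 17 of 17 alternative settings. The call at 1 h after X-rays did not hold in 12 of 17, in which its adjusted p reached 0.1415, and it ended without each of 92-1, C32TG, Colo679, HMV-I and HMV-II.

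ZNF621 was measured by a pair of member probes that moved in opposite directions. Probe 285112 fell by 0.35 ± 0.13 at 1 h after carbon ions (adjusted p = 0.00128), by 0.32 ± 0.21 at 3 h after carbon ions (adjusted p = 0.0165) and by 0.37 ± 0.12 at 3 h after X-rays (adjusted p = 0.0032), each in 6 of 6 lines. Its 18 arrays at 3 h after X-rays ran from 3.39 to 4.64 with a median of 3.93, against 3.92 to 5.17 with a median of 4.32 in unirradiated cells. At 1 h after X-rays it differed by -0.19, which was not called (adjusted p = 0.128). Probe 31038 of the same gene, much closer to the level limit at a mean of 0.09, rose by 0.30 ± 0.18 at 3 h after carbon ions in 6 of 6 lines (adjusted p = 0.02). No other gene with several member probes had probes called in opposite directions in one comparison.

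ZNF738 and ZNF638 fell at 3 h after both beams with wide spread between lines. ZNF738 probe 177049 was lower by 0.31 ± 0.29 after carbon ions (adjusted p = 0.0419) and by 0.61 ± 0.49 after X-rays (adjusted p = 0.0179), in 6 of 6 lines each. Colo679 gave -1.45 and HMV-II -0.81 after X-rays, while MeWo gave -0.15 and 92-1 -0.18. After carbon ions HMV-II gave -0.83 and the other lines -0.50 to -0.10. Probe 40009 of ZNF738 did not follow, at 0.22 after carbon ions (adjusted p = 0.0698) and 0.14 after X-rays (adjusted p = 0.188). ZNF638, an RNA-binding protein that helps silence unintegrated viral DNA, was lower by 0.49 ± 0.44 at 3 h after carbon ions (adjusted p = 0.0321, 6 of 6 lines), with MeWo at -1.30 and Colo679 at -0.67. After X-rays it was lower by 0.34 ± 0.21 (adjusted p = 0.0144, 5 of 6 lines). At 3 h after carbon ions the call of ZNF738 did not hold in 7 of 17 alternative settings, in which its adjusted p reached 0.3295. That of ZNF638 did not hold in 4 of them.

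**Figure D3:**
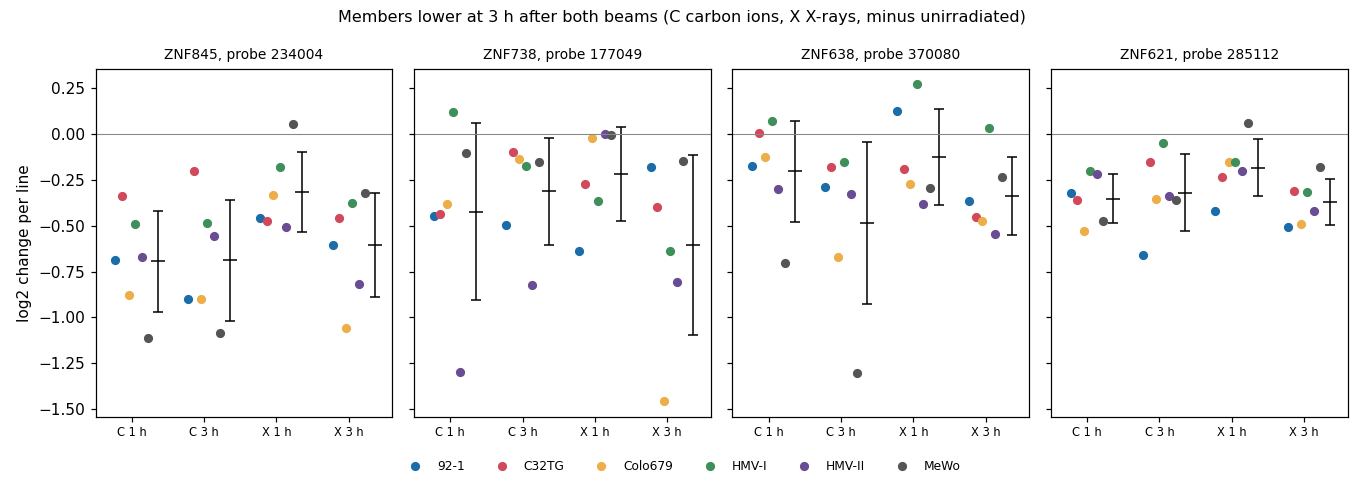
Log2 change of each line (coloured points) against its unirradiated cells for 4 members that were lower at 3 h after both beams, with the mean and SD over 6 lines in black. C marks carbon ions and X marks X-rays. ZNF845 and ZNF621 probe 285112 lie below 0 in all lines at 3 h, and single lines reach -1.45 for ZNF738 and -1.30 for ZNF638.

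Among the other falls, ZNF679 probe 83070 (chromosome 7) fell by 0.20 ± 0.12 at 1 h (adjusted p = 0.0347) and by 0.32 ± 0.15 at 3 h after carbon ions (adjusted p = 0.0102), in 6 of 6 lines each, at a mean level of 0.35. ZNF786 (-0.21, adjusted p = 0.0107), ZNF616 probe 40037 (-0.18, adjusted p = 0.0455), ZNF862 probe 62089 (-0.18, adjusted p = 0.0154), ZNF700 (-0.15, adjusted p = 0.0399) and ZNF691 (-0.15, adjusted p = 0.0345) fell at 1 h after carbon ions in 6 of 6 lines. ZNF662 fell by 0.18 ± 0.08 at 3 h after carbon ions (adjusted p = 0.0335), and ZNF555 probe 460089 by 0.22 ± 0.15 at 3 h after X-rays (adjusted p = 0.0439), where the other probe of ZNF555, 143016, read 0.14 and was not called (adjusted p = 0.321). The other probe of ZNF862, 38111, read -0.05 at 1 h after carbon ions and was not called (adjusted p = 0.587). Nor was the other probe of ZNF616, 65018, which read 0.006 there (adjusted p = 0.95). At 1 h after carbon ions the call of ZNF786 held in 17 of 17 alternative settings. That of ZNF700 did not hold in 10 of them, of ZNF616 and ZNF691 in 8 each, of ZNF679 in 6 and of ZNF862 in 2. The call of ZNF662 did not hold in 7 settings and that of ZNF555 in 11.

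ZNF691, on chromosome 1, was the second member to fall at 1 h after X-rays, by 0.20 ± 0.04 in 6 of 6 lines (adjusted p = 0.0329). Line values ran from -0.24 in 92-1 to -0.14 in HMV-II, the narrowest spread among the named falls. In MeWo the arrays read 1.26, 1.33 and 1.34 at 1 h after X-rays, 1.66, 1.70 and 1.76 at 3 h, and 1.48, 1.52 and 1.57 in unirradiated cells, so that the 3 conditions did not overlap. Between 1 h and 3 h it was higher at 3 h by 0.25 ± 0.12 after carbon ions (adjusted p = 0.0278) and by 0.29 ± 0.11 after X-rays (adjusted p = 0.0263), in 6 of 6 lines each. ZNF721 had the next smallest p among falls at 1 h after X-rays and did not pass, at -0.28 (adjusted p = 0.0509). Both calls at 1 h after X-rays ended when any of 92-1, C32TG, Colo679, HMV-I or HMV-II was left out, and 1 held without MeWo.

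Of the members that were higher at 3 h than at 1 h, 6 were called after both beams. The share of all probes called after both is not given here. The differences had the same sign after both beams in 75.2% of members, against 65.7% of all probes. The largest differences were those of ZNF654, ZNF526, ZNF616 and ZNF786. ZNF654 (chromosome 3) had 18 arrays from 2.59 to 5.02 with a median of 4.17 at 3 h after carbon ions, against 2.18 to 4.49 with a median of 3.84 at 1 h. The difference of 3 h minus 1 h was 0.45 ± 0.26 after carbon ions (adjusted p = 0.0142) and 0.41 ± 0.16 after X-rays (adjusted p = 0.0139), in 6 of 6 lines each. ZNF526 (chromosome 19) differed by 0.39 ± 0.20 (adjusted p = 0.0134) and by 0.41 ± 0.17 (adjusted p = 0.0154), also in 6 of 6 lines each. In HMV-II its arrays read 2.37, 2.46 and 2.51 at 3 h after carbon ions, against 1.82 and 1.83 at 1 h, where the third was missing, and 1.77, 1.87 and 1.92 in unirradiated cells. The 3 h arrays of that line lay above both other sets.

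ZNF616 probe 40037 differed by 0.36 ± 0.21 after carbon ions (adjusted p = 0.0196, 5 of 6 lines) and by 0.45 ± 0.12 after X-rays (adjusted p = 0.00453, 6 of 6 lines). Its levels at 1 h after X-rays ran from 1.22 to 2.59 with a median of 1.82, at 3 h from 1.72 to 3.11 with a median of 2.14, and in unirradiated cells from 1.34 to 2.78 with a median of 2.09. The 1 h arrays were thus the lowest of the 3 sets by their median. Its other probe, 65018, gave 0.15 after carbon ions (adjusted p = 0.142) and 0.16 after X-rays (adjusted p = 0.119), neither called. ZNF786 (chromosome 7) differed by 0.36 ± 0.21 (adjusted p = 0.0201) and by 0.38 ± 0.19 (adjusted p = 0.0279), in 6 of 6 lines each. ZNF609, a nuclear protein that works with the cohesin loader, was higher at 3 h after carbon ions by 0.31 ± 0.12 (adjusted p = 0.0111) and ZNF570 probe 429107 by 0.27 ± 0.14 (adjusted p = 0.0306). The other probe of ZNF570, 399010, read 0.13 and was not called (adjusted p = 0.343). ZNF669 was the single member lower at 3 h than at 1 h after X-rays, by 0.28 ± 0.12 in 6 of 6 lines (adjusted p = 0.0339). The calls of ZNF669 and ZNF570 did not hold in 8 of 17 alternative settings each, and that of ZNF786 after X-rays did not hold in 6.

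**Figure D4:**
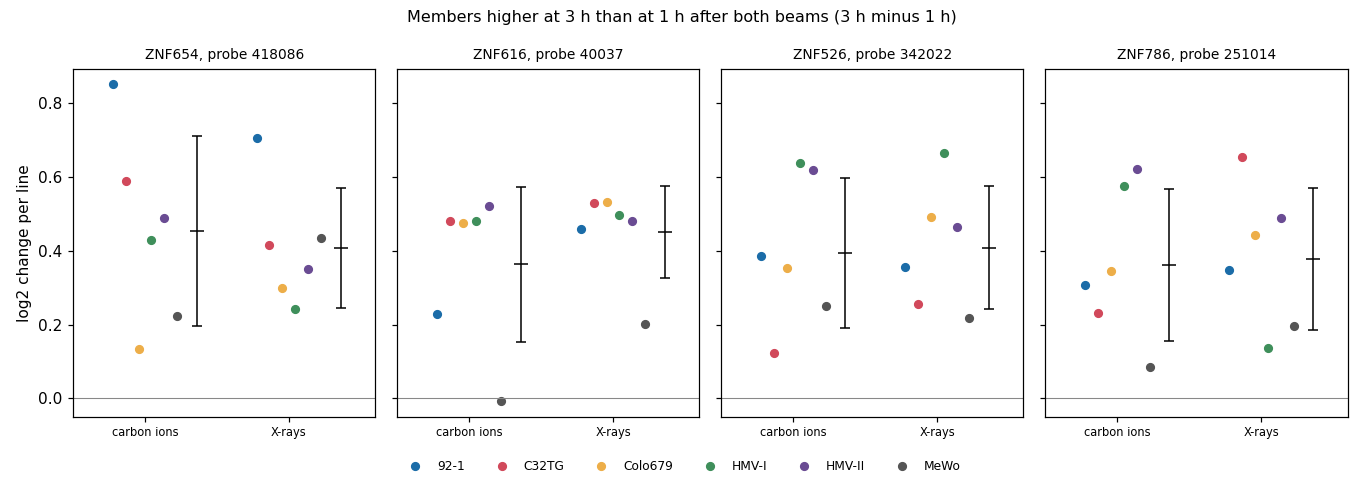
Log2 difference of 3 h minus 1 h in each line (coloured points) for ZNF654, ZNF526, ZNF616 probe 40037 and ZNF786, with the mean and SD over 6 lines in black. All points lie above 0 except 1 line of ZNF616 after carbon ions, and the means run from 0.36 to 0.45.

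For ZNF845, ZNF691, ZNF526 and ZNF616 the 250 bases before the annotated start are shown from RefSeq (GRCh38.p14), each 5′ to 3′ on the strand of its gene. ZNF845 and ZNF691 fell at 1 h after both beams, and ZNF526 and ZNF616 (by its probe 40037) were higher at 3 h than at 1 h after both. These are not separate classes. ZNF691 was also higher at 3 h than at 1 h, and ZNF616 also fell at 1 h after carbon ions. Capitals mark CCAAT, the box bound by NF-Y, and GGGCGG, the GC box bound by Sp1 factors, on either strand; in ZNF526 a GC box and a CCAAT box overlap.
ZNF845 (chr19:53333499-53333748, + strand): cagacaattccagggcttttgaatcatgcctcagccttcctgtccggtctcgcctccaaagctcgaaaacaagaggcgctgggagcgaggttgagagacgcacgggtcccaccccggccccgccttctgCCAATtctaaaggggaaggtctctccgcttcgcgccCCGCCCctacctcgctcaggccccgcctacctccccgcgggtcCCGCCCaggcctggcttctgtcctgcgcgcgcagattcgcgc
ZNF691 (chr1:42846363-42846612, + strand): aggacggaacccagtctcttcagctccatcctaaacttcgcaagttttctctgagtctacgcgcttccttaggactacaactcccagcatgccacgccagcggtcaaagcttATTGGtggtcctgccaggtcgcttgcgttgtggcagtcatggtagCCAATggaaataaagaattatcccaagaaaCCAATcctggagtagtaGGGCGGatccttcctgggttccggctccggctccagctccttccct
ZNF526 (chr19:42220062-42220311, + strand): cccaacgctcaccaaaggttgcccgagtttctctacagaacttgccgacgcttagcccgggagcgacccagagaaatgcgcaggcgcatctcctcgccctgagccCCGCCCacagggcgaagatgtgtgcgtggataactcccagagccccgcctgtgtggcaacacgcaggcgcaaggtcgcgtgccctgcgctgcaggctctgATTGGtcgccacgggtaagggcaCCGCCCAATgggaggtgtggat
ZNF616 (chr19:52139939-52140188, - strand): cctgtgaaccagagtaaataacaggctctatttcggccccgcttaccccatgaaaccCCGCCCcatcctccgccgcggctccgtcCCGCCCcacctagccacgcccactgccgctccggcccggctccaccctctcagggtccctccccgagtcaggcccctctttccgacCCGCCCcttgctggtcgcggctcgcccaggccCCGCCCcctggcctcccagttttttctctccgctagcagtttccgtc

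ZNF845 held 1 CCAAT and 2 GGGCGG matches, ZNF691 held 3 and 1, ZNF526 held 2 and 2, and ZNF616 held 0 and 4. The promoter table held 152 such windows for 115 of the 138 member genes. CCAAT was found in 38.8% of them, against 32% of all 35116 windows of the table, non-coding genes included, and GGGCGG in 60.5%, against 42.6%. CCGGAAG, a core of ETS factor sites, was found in 25.7% of the members' windows, against 8.52% of all. The NRF1 motif was found in 9.87%, against 5.07%, and TGACGTCA, the CRE bound by CREB and ATF factors, in 2.63%, against 1.65%. All were searched on both strands. Of the 11 windows of genes that fell in any irradiation comparison 6 held CCAAT and 1 held CCGGAAG, of the 39 of genes that rose 13 and 12, and of the 102 of genes called in none 40 and 26. GGGCGG was held by 7, 25 and 60 windows in the same order of sets. The NRF1 motif was held by 0, 6 and 9, and TGACGTCA by 0, 2 and 2. Whether these sets differed was not tested. A match is a description of the letters and no test of binding was made.

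Rises at 1 h were small and were called after carbon ions. ZNF507 probe 9035 (chromosome 19) rose by 0.32 ± 0.16 in 6 of 6 lines (adjusted p = 0.00649), with 18 arrays from 0.29 to 2.31 and a median of 1.28 at 1 h, against 0.14 to 1.86 and a median of 0.94 in unirradiated cells. At 3 h after carbon ions it read 0.08 (adjusted p = 0.386). Its other probe, 174009, read -0.14 at 1 h and was not called (adjusted p = 0.28). ZNF669 (0.29, adjusted p = 0.00684), ZNF853 (0.28, adjusted p = 0.00922), ZNF784 (0.23, adjusted p = 0.0441) and ZNF582 (0.22, adjusted p = 0.0099) rose at 1 h in 6 of 6 lines. ZNF853 and ZNF582 were dim in part of the lines. In unirradiated cells of the carbon-ion set ZNF853 ran from -1.1 to 2.8 with a median of 0.16. There ZNF582 ran from -1.1 to 1.9 with a median of 0.14. The call of ZNF784 did not hold in 9 of 17 alternative settings, and those of ZNF669 and ZNF582 did not hold in 1 each. After X-rays at 1 h the smallest p-values among rises belonged to ZNF507 (0.19, adjusted p = 0.0991), ZNF669 (0.14, adjusted p = 0.22) and ZNF778 (0.16, adjusted p = 0.246), none of which passed.

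The largest rise at 3 h after carbon ions was that of ZNF618, a partner of the 5-hydroxymethylcytosine reader UHRF2. Its probe 362103 rose by 0.37 ± 0.18 in 6 of 6 lines (1.29-fold, adjusted p = 0.00677), with 0.15 in 92-1, 0.49 in C32TG, 0.25 in Colo679, 0.42 in HMV-I, 0.27 in HMV-II and 0.63 in MeWo. Its probe 159096 rose by 0.21 ± 0.14 in the same comparison (adjusted p = 0.0356), and both probes were called higher at 1 h too, by 0.21 (adjusted p = 0.0264) and 0.16 (adjusted p = 0.0411). In MeWo, the line of its largest rise, probe 362103 had an unirradiated mean of -0.99, its lowest level among the lines. ZNF557 (0.33, adjusted p = 0.0262), ZNF853 (0.33, adjusted p = 0.0177), ZNF718 (0.33, adjusted p = 0.00596) and ZNF579 (0.31, adjusted p = 0.0114) rose at 3 h after carbon ions in 6 of 6 lines. After X-rays ZNF526 (0.30, adjusted p = 0.0112), ZNF614 (0.27, adjusted p = 0.0165), ZNF644, a partner of the histone methyltransferases G9a and GLP (0.23, adjusted p = 0.0416), and ZNF641 probe 193026 (0.22, adjusted p = 0.035) rose at 3 h in 6 of 6 lines. The other probes of ZNF641, 279080 at 0.08 (adjusted p = 0.368) and 357103 at -0.01 (adjusted p = 0.928), were not called. The call of ZNF526 held in 17 of 17 alternative settings. Those of ZNF644, ZNF641 and ZNF614 did not hold in 11, 8 and 3 of them. Also at 3 h after carbon ions, probe 374084 of ZNF703, a co-repressor amplified in some breast cancers, rose by 0.29 ± 0.15 (adjusted p = 0.0134), while its probe 75032 read -0.14 (adjusted p = 0.107).

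In all, 51 members of 49 genes were called in at least 1 of the 4 irradiation comparisons and 114 in none. The 51 were 30.9% of members, against 19.8% of all probes and 18.5% of named probes. Of them 13 fell (7.88%), a larger share than the 6.96% of named probes and a smaller one than that of all probes (3219 of 32060). Another 38 rose (23%), against 11.6% of named and 9.81% of all probes. With 1 probe per gene, the brightest, 8 of 138 genes fell and 14 rose at 1 h after carbon ions, and 6 fell and 24 rose at 3 h. The 25 genes with several member probes had probes of opposite sign in 15 cases at 1 h and 12 at 3 h after carbon ions, and in 16 and 13 after X-rays. Most of those differences were not called. At 3 h after carbon ions 9 of the 72 probes of chromosome 19 genes rose (12.5%) and 2 fell (2.78%), against 19 (20.4%) and 4 (4.30%) of the 93 probes of genes elsewhere. Members above the median level of 1.82 rose in 17 of 82 cases and members up to it in 11 of 83. The 106 probes designed on RefSeq mRNAs held 16 rises and 2 falls, and the other 59 held 12 and 4. The shares of all probes taken by gene, chromosome, level or probe design are not given here. These counts therefore show nothing particular to the members, and level was itself part of their choice.

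Zinc finger genes outside the name range were set beside the members as a description. Of 197 probes of ZNF1 to ZNF499 under the same limits, 26 fell (13.2%) and 11 rose (5.58%) at 1 h after carbon ions, and 10 fell and 24 rose (12.2%) at 3 h. Between 1 h and 3 h, 23 of them were higher at 3 h after carbon ions (11.7%) and 19 after X-rays (9.64%). Of 74 probes of ZSCAN, ZKSCAN, ZBTB and ZFP genes, 3 fell and 1 rose at 1 h after carbon ions, and 3 fell and 9 rose at 3 h. The difference between these lists and the members was not tested.

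The beams were compared through each line's own unirradiated cells. By limma 0 members differed in the test of carbon ions minus X-rays at 1 h or 3 h, with 8 (4.85%) and 9 (5.45%) at an unadjusted p under 0.05, against 7.55% and 4.46% of all probes. Of all 32060 probes 0% were called in either test, so the members' 0 is that of the whole array. The smallest p-values at 1 h were those of ZNF853 (0.22 ± 0.17, adjusted p = 0.54) and ZNF845 (-0.38 ± 0.44, adjusted p = 0.558), and at 3 h those of ZNF618 probe 362103 (0.27 ± 0.29, adjusted p = 1) and ZNF649 (-0.18 ± 0.06, adjusted p = 1). The 95% intervals of these differences ran from 0.06 to 0.37, from -0.65 to -0.10, from 0.06 to 0.47 and from -0.32 to -0.04, without adjustment. Across the 165 members the changes after carbon ions and after X-rays correlated with r = 0.767 at 1 h and r = 0.812 at 3 h, close to 0.712 and 0.805 over all probes tested. Members share lines, arrays and normalization, so this is a description. At 3 h 8 members were called in the same direction after both beams, 4 higher and 4 lower, and 0 in opposite directions. The share of all probes called in this way is not given here, so these counts show nothing particular to the members. The changes had the same sign after both beams in 80% of members and in 79% of all probes. Before irradiation 0 members differed between the carbon-ion and the X-ray sets over lines by limma, with 0% of all probes called either and 16 members (9.70%) at an unadjusted p under 0.05, against 9.72% of all probes, the smallest for ZNF567 (0.56 ± 0.31, adjusted p = 0.388). The median difference of the members was 0.25 in MeWo and -0.05 to 0.04 in the other lines, and in MeWo it was 0.18 for named probes and 0.05 for all probes.

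**Figure D5:**
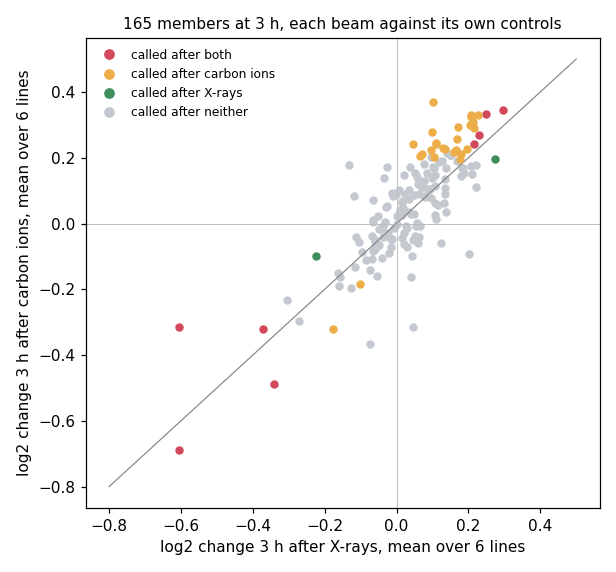
Log2 change at 3 h after carbon ions (vertical axis) against that after X-rays (horizontal axis) for the 165 members, each a mean over 6 lines, with the line of equal change. Of the 8 members called after both beams, 4 lie to the lower left and 4 to the upper right, with ZNF845 at -0.69 after carbon ions and -0.61 after X-rays.

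Within single lines, limma on the 18 arrays of a line called members at 3 h after carbon ions as follows. In MeWo 13 of 158 fell (8.23%) and 28 rose (17.7%), against 11.5% and 9.55% of all probes. In Colo679 12 of 158 fell (7.59%) and 33 rose (20.9%), against 8.40% and 9.89%. In HMV-I 3 of 157 fell (1.91%) and 28 rose (17.8%), against 6.76% and 7.83%. In HMV-II 4 of 153 fell (2.61%) and 21 rose (13.7%), against 4.90% and 4.30%. In 92-1 3 of 155 fell (1.94%) and 11 rose (7.10%), against 3.95% and 4.55%, and in C32TG 5 of 150 fell (3.33%) and 9 rose (6.00%), against 4.45% and 3.99%. After carbon ions the share of rises at 3 h exceeded that of all probes in each of the 6 lines. After X-rays 15.8% of members rose at 3 h in Colo679, 13.4% in HMV-I and 5.7% in MeWo, against 10%, 8% and 2.1% of all probes. In HMV-II 4 of 153 rose (2.61%), against 1.46%, and in C32TG 4 of 150 (2.67%), against 2.15%. These 2 shares rest on few members. In 92-1 2.58% of members rose, against 2.98% of all probes. The shares of named probes within lines are not given here. C32TG was the line with the most falls at 1 h, 12 of 150 after carbon ions (8%) and 14 after X-rays (9.33%), with 3 rises each (2.00%), against 6.41% and 5.34% of all probes lower and 3.14% and 2.07% higher.

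Differences between lines in the response itself were tested by limma's F over all arrays in the 114 members with no missing value. This F took single arrays as replicates, so its p-values measure differences against array-to-array spread, which may be technical. At 3 h 35 differed after carbon ions (30.7%) and 28 after X-rays (24.6%), against 23.7% and 23.1% of the 20424 probes tested. At 1 h 7 differed after carbon ions (6.14%) and 4 after X-rays (3.51%), against 5.10% and 3.91%. ZNF845 differed between lines at 3 h after carbon ions (adjusted p = 0.0188), with the smallest fall in C32TG and the largest in MeWo.

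The lines also differed in their unirradiated levels. In unirradiated cells of the carbon-ion set 153 of 156 members with all values differed between lines by limma's F (98.1%), against 95.4% of all probes, and in the X-ray set 156 of 156, against 96.9%. Here too the F measured differences against the spread between arrays only. The range of line means had a median of 1.35 over members in the carbon-ion set, against 1.05 over all probes, and exceeded 1 in 69.1% of members, against 52.7%; 66.3% of named probes under the same limits did so. ZNF595 probe 396024 (chromosome 4) had the widest range, 5.59. Its means in the carbon-ion set were 5.19 in 92-1, 5.09 in Colo679, 4.54 in HMV-II, 1.59 in HMV-I, 0.23 in C32TG and -0.40 in MeWo. 92-1 and Colo679 differed by less than the pooled SD between arrays of 0.135, and the other neighbours in this order differed by more. Its probe 81078 gave another order, with 3.50 in 92-1, 2.05 in HMV-II, 1.32 in Colo679, 0.91 in MeWo, -0.09 in C32TG and -0.83 in HMV-I.

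ZNF618 probe 362103 ranged over 5.44, from 4.45 in 92-1 to -0.99 in MeWo, with 3.41 in Colo679, 2.68 in HMV-II, 2.05 in C32TG and 1.50 in HMV-I. ZNF695 ranged over 4.57 and fell into a high set of HMV-I (3.67), 92-1 (3.23) and C32TG (3.20) and a low set of HMV-II (-0.56), Colo679 (-0.70) and MeWo (-0.91). Within each set neighbours differed by less than its SD between arrays, 0.379, except HMV-I and 92-1. ZNF697 ranged over 4.45, from 6.57 in HMV-II to 2.12 in HMV-I. The X-ray set gave ranges of 5.97 for ZNF595 probe 396024, 5.14 for ZNF618, 4.65 for ZNF695 and 4.26 for ZNF697.

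The co-repressor pathway that KRAB proteins use was followed as a list of 26 genes, 21 of them measured. At 1 h after carbon ions 1 rose and 0 fell, at 3 h 3 fell and 1 rose, at 1 h after X-rays 0 passed and at 3 h 2 rose. Of all probes tested 6.03% fell and 4.67% rose at 1 h after carbon ions, and 6.98% and 6.43% at 3 h. After X-rays it was 0.786% and 0.368% at 1 h, and 4.18% and 2.96% at 3 h. Whether the list differed from all probes was not tested. SENP1, a protease that removes SUMO, the modifier through which TRIM28 recruits its partners, rose by 0.34 ± 0.18 at 1 h (adjusted p = 0.00789) and 0.36 ± 0.14 at 3 h after carbon ions (adjusted p = 0.00581) and by 0.35 ± 0.14 at 3 h after X-rays (adjusted p = 0.00532), in 6 of 6 lines each. CBX5, a heterochromatin protein that binds methylated histone H3, rose by 0.22 ± 0.11 at 3 h after X-rays (adjusted p = 0.0318). At 3 h after carbon ions the histone chaperone DAXX fell by 0.23 ± 0.08 (adjusted p = 0.0192), MPHOSPH8, the reader subunit of the HUSH silencing complex, by 0.21 ± 0.10 (adjusted p = 0.0229) and MORC2, a chromatin-compacting ATPase that works with HUSH, by 0.17 ± 0.10 (adjusted p = 0.0477). MPHOSPH8 was also lower at 3 h than at 1 h after carbon ions, by 0.26 ± 0.10 (adjusted p = 0.0181), as was UHRF1, a maintenance factor of DNA methylation, by 0.38 ± 0.28 (adjusted p = 0.0454). The median of the measured genes was 0.02 at 1 h and -0.09 at 3 h after carbon ions, against 0.01 and 0.00 (0.004) for all probes tested.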

How the data were processed

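RNA of 6 melanoma lines was measured on single-colour CodeLink whole human genome arrays, after ISOGEN and RNeasy extraction and biotin labelling, per the labels. The deposited value is an intensity on a linear scale, already scaled by the authors, to judge from the array medians. The scaling software is not given in the sources used here. Those medians ran from 1.02 to 1.32 and 1000 to 8034 values per array were missing. The number of arrays limits the precision.

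Log2 intensities of 32060 probes (at most 10% missing, mean log2 above the 40th percentile over all probes) were quantile-normalised. The means of 3 arrays gave 1 change per line and comparison, tested over 6 lines with limma 3.58.1 (R 4.3.3, eBayes with trend) and Benjamini-Hochberg adjustment over all probes tested. Within a line and between lines, limma was fitted on single arrays of probes with no missing value there. The code was tested on simulated data. Genes were named by the platform annotation, and chromosomes and promoters by RefSeq GRCh38.p14.

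Named genes were, per irradiation or time comparison, the members called and moved the same way in 6 of 6 lines, up to 10 with the largest fall and 5 with the largest rise, or the 3 with the smallest p in a direction where fewer than 3 were called. For beams and unirradiated sets they were the 3 smallest p in each direction, and for levels the 5 widest ranges. All probes of a gene with several could be named. Members called in 5 of 6 lines were named after their values were seen. The members and lists were chosen with earlier results of these data known. Alternatives were median centring, deposited scaling, other filters, no trend, fits on all arrays, a replicate block, and each line or replicate number left out. Quantile normalization over all probes was added after seeing the data. Figures were drawn with matplotlib 3.10.9 in Python 3.11.15.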

Additional observations from a re-analysis of the deposited data

Results flagged for a closer look

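In 60 results of named genes the line values were tested for a line far from the others, a test that chance alone meets in about 1 in 20 groups. It picked 2. The rise of ZNF669 at 1 h after carbon ions was 0.57 (0.568) in Colo679, well above the other lines. The difference of ZNF616 probe 40037 between 3 h and 1 h after X-rays was 0.20 (0.202) in MeWo, well below the other lines.

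Among named changes, 3 differed between lines by limma's F over all arrays, a test against the spread between arrays only. They were the change of ZNF784 at 1 h after carbon ions (adjusted p = 0.00433), that of ZNF845 at 3 h after carbon ions (adjusted p = 0.0188) and that of ZNF557 at 3 h after carbon ions (adjusted p = 0.0207). In each of the 3 all lines had the same sign, so that the lines differed in size.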

How the results depend on the processing

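Counts of called members are given first with the main value. Falls at 1 h after carbon ions (9) became 28 when single arrays were fitted together, 29 with the replicate block added and 20 with all probes normalised, and rises (15) became 24 with median centring, 7 with no filter on level, 36 on all arrays, 38 with the replicate block and 4 with all probes normalised. At 3 h falls (6) became 21 on all arrays and 22 with the replicate block, and rises (28) became 15 as deposited, 70, 71 with the replicate block and 15 with all probes normalised. At 1 h after X-rays falls (2) became 1 with median centring, 1 as deposited, 1 with no filter and 1 without trend, and 18 on all arrays with or without the replicate block, while rises (0) became 7 and, with the block, 10. At 3 h after X-rays falls (5) became 14 and, with the block, 15, and rises (5) became 20 with median centring, 2 as deposited, 3 with no filter, 52 on all arrays, 54 with the block and 2 with all probes normalised. Between 1 h and 3 h after carbon ions lower calls (0) became 1 with median centring, 4 as deposited, 10 on all arrays and 11 with the block, and higher calls (15) became 9 as deposited and 43 in both fits on all arrays. After X-rays lower calls (1) became 2 as deposited, 11 in both fits on all arrays and 0 with all probes normalised, and higher calls (9) became 46, 48 with the block and 5 with all probes normalised. Between beams 1 member was lower at 1 h and 1 at 3 h in both fits on all arrays, and 2 were higher at 3 h, 4 with the block. The fits on all arrays take single arrays as replicates. The shares of all probes called in those fits, with no filter or without trend are not given here. How far those counts moved with the whole array therefore cannot be read from them.

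With 1 line or 1 replicate number left out, falls and rises were 3 to 10 and 5 to 13 at 1 h and 3 to 9 and 6 to 27 at 3 h after carbon ions, and 0 to 1 and 0 to 0 at 1 h and 2 to 6 and 1 to 7 at 3 h after X-rays. Between 1 h and 3 h, lower and higher calls were 0 to 2 and 5 to 12 after carbon ions and 0 to 1 and 1 to 9 after X-rays. The shares of all probes called in these settings are not given here either, so a smaller count may follow the whole array.

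The median change of members was -0.05 (-0.0502) at 1 h after carbon ions and -0.03 (-0.0335) at 1 h after X-rays with all probes normalised. It was 0.02 (0.0224) at 3 h and 0.01 (0.00888) between the times after carbon ions as deposited, and 0.08 (0.0798) between the times after X-rays with median centring. At 1 h after X-rays it ran from -0.023 to 0.000569 with 1 line or number left out.

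Within-line calls summed over lines were 27 falls at 1 h after carbon ions (15 as deposited, 7 with the replicate block, 42 with all probes normalised, 4 to 11 with a number left out) and 24 rises (40 with median centring, 14, 4, 10, and 2 to 7). At 3 h they were 40 falls (9 to 27 with a number left out) and 130 rises (57 as deposited, and 19 to 64). At 1 h after X-rays they were 20 falls (11 as deposited, 9 with the block, 40 with all probes normalised, and 4 to 13) and 3 rises (5 with median centring, 0, 1, 0, and 0 to 3). At 3 h after X-rays they were 30 falls (12 with the block, and 7 to 17) and 67 rises (30 with the block, and 15 to 45). The sums count a member once for each line in which it was called. The matching shares of all probes are not given here, so the sums show nothing particular to the members. Members that differed between lines at 1 h after X-rays (4) became 2 as deposited. Of the correlations of deviations between same-numbered arrays, which ran from -0.4 to 0.43, 30 were above 0.1 and the rest were not, so the numbers were not taken as pairs. No named result changed sign in any setting. Of the 45 named results that were called, 16 were called in every setting. The cause of these shifts was not tested.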
